A study of Homo sapiens with 16 samples.

Results

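The clustered and variant histone genes are the protein-coding genes whose symbols name a linker or core histone of the replication-dependent clusters (H1-1 to H1-6, H2AC, H2BC, H3C and H4C genes) or a variant histone, such as H1-10, H2AX, H2AZ1 or H3-3A. The symbol rule matched 100 rows of the deposited table of 60664 genes, and 75 of these were protein coding. Of the 75 genes, 66 were replication-dependent (6 H1, 16 H2A, 17 H2B, 13 H3 and 14 H4), with 55 on chromosome 6 and 11 on chromosome 1. The other 9 were variants. RNA had been sequenced in 4 groups of 4 libraries from THP-1 cells, an established line from a human monocytic leukaemia. Every group had first been turned into unpolarized (M0) macrophages by 48 hours with the phorbol ester PMA at 100 ng/mL. For the next 48 hours, the M0+LPS+IFN-γ+iMSCs and M0+LPS+IFN-γ groups received lipopolysaccharide (LPS) of Porphyromonas gingivalis at 100 ng/mL and interferon-γ (IFN-γ) at 20 ng/mL, and the M0+iMSCs and M0 groups received neither. In both iMSCs groups, mesenchymal stem cells made from induced pluripotent cells (iMSCs) were kept above the macrophages in a Transwell insert, which soluble factors can cross. The count columns of those groups carry the letters CM, which the labels do not explain. All groups come from 1 cell line, and nothing in the labels says that replicates were separate cultures, so that p-values reflect only how far these libraries spread, which may be technical.

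Core histones H2A, H2B, H3 and H4 form the spool around which DNA is wound, and linker histone H1 binds where the DNA enters and leaves it. Replication-dependent histone genes are switched on as cells enter S phase, and their mRNAs usually lack a poly(A) tail and end in a stem-loop that stem-loop binding protein (SLBP) holds. Variant genes are expressed throughout the cell cycle, have polyadenylated mRNAs and supply histones to cells that do not divide. Some replication-dependent genes also make longer, polyadenylated mRNAs, chiefly in cells that have left the cycle. The sources used here do not give whether the libraries were made by poly(A) selection or by removal of ribosomal RNA, so a level of a replication-dependent gene may count only part of its mRNA.

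The stem-loop is shown because it marks the replication-dependent class. The consensus histone stem-loop of 16 bases was searched in the protein-coding transcript models of GENCODE release 29, on the transcript strand, and capitals mark the 4 bases of the loop. H2BC21, H2BC4 and H2AC11 stand for the H2A and H2B genes, H4C8 and H4C14 for the H4 genes, and H2AX for the variants.
H2BC21: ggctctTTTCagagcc
H2BC4: ggctctTTTAagagcc
H2AC11: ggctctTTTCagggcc
H4C8: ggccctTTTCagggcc
H4C14: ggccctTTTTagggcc
H2AX: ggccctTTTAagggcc
The pattern was in the models of 27 of 64 replication-dependent genes with a model, in 1 of 9 variants (H2AX, whose mRNA is known in a stem-loop and a polyadenylated form), and in 52 of 19684 protein-coding genes (0.264%). Where the models end was not checked, and only full matches to the pattern were counted, so a missing match says nothing of the mRNA. The form of H2BC21 was the most frequent, with 15 members. In 19 of the 27 replication-dependent genes, a model ran over 100 bases past the stem-loop, and in H2BC21 it ran 1729 bases past it.

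Promoters of 3 genes are shown because of how the genes moved. H2BC4 and H2BC11 each lie head to head with an H2A gene, H2AC6 and H2AC11, and H2AZ1 is a variant that was higher with iMSCs. The sequences are those of RefSeq on GRCh38.p14, from 250 bases before to 50 after the start of the gene. Capitals mark the letters CCAAT of the box that nuclear factor Y binds, the TATA box written TATAAA, the octamer element written ATTTGCAT and the cell cycle homology region written TTTGAA. All were searched on both strands, and overlapping matches run together.
H2BC4 (chr6:26123877-26124176, minus strand): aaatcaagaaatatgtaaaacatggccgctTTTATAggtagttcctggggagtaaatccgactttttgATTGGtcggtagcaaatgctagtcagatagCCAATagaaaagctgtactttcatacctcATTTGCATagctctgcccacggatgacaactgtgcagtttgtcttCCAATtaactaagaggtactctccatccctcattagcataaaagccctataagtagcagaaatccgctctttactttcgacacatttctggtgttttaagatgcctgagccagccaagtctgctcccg
H2BC11 (chr6:27132746-27133045, minus strand): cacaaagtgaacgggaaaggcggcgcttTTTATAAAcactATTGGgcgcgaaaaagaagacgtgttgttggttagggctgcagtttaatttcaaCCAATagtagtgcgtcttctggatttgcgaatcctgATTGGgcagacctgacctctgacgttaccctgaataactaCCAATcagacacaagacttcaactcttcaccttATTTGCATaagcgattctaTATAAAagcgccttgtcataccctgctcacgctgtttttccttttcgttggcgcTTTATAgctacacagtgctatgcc
H2AZ1 (chr4:99950226-99950525, minus strand): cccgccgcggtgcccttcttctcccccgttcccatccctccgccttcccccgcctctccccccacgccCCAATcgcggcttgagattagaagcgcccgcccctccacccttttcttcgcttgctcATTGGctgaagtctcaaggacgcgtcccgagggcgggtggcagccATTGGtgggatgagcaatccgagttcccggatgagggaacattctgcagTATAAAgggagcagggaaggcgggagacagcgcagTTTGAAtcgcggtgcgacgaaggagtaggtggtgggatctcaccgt
CCAAT was in 85.2% of 61 replication-dependent promoters and in 34.6% of all 35116 promoters, TATAAA in 67.2% and 11.5%, the octamer in 42.6% and 1.77%, and TTTGAA in 32.8% and 15.2%. The octamer was held by 82.4% of H2B and 73.3% of H2A promoters, by 9.09% of H3 promoters and by no H1 or H4 promoter. The only H3 promoter with it was that given for H3C4, which is the same stretch as that given for H2AC7. Promoters of head-to-head genes overlap, so the same match of any of these elements can count for an H2A and an H2B gene. The only TATAAA match marked for H2BC4 is the one before the start of H2AC6, read on the other strand. RefSeq promoters were matched for 69 of the 75 genes, and a match is a description of letters, not of a bound factor.

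Between 17336637 and 24368753 counts were assigned per library, and 15301 genes passed the count filter. No pair of libraries of a group agreed within sampling noise (the lowest chi-square was 1.79 per degree of freedom). Replicate 4 of M0+LPS+IFN-γ stood far from the other 3 libraries of its group (104 to 113 per degree of freedom, against at most 3.41 among those 3), and replicates 1 and 2 of M0+iMSCs stood apart from 3 and 4 (9.99 to 18.8, against 3.15 and 4.81 within the pairs). Replicate 4 of M0+LPS+IFN-γ+iMSCs also stood apart (10.8 to 11.9, against 2.21 to 5.12 among the other 3). Of 12 macrophage markers 11 were tested, and CD68 had only 9 to 21 counts per group. The 16 mesenchymal markers summed to 521 to 559 CPM (counts scaled to a common library size) in M0+LPS+IFN-γ+iMSCs, 1111 to 1307 CPM in M0+LPS+IFN-γ, 1364 to 1684 CPM in M0+iMSCs and 1562 to 1610 CPM in M0. NT5E averaged 111, 890, 558 and 1280 CPM in the same order. It made up most of the sum in the groups without iMSCs, so the sum does not measure mesenchymal cells. COL1A2, COL3A1, THY1 and POSTN had at most 8 counts in any group. DCN, a matrix proteoglycan of that list, had 1772, 5, 69 and 0 counts in the same order. COL6A3, a collagen of it, ran otherwise, with 59, 321, 25790 and 1165 counts. Of the 12 tested mesenchymal markers 7 rose and 2 fell (edgeR's adjusted p under 0.05) in M0+iMSCs over M0. Among all tested genes 36.2% rose and 33.6% fell. In M0+LPS+IFN-γ+iMSCs over M0+LPS+IFN-γ 4 of these markers rose and 5 fell, where 38.4% and 36.3% of all tested genes did. The part of other cells in the histone results was not tested. All levels below are CPM after scaling by TMM, which sets library sizes by the bulk of genes. With library totals alone in its place, the median log2 fold change of all tested genes moved to 0.17 for M0+iMSCs over M0, -0.25 for M0+LPS+IFN-γ over M0, 0.50 for M0+LPS+IFN-γ+iMSCs over M0+LPS+IFN-γ and 0.12 for M0+LPS+IFN-γ+iMSCs over M0+iMSCs, where TMM gave 0.03, 0.01, 0.03 and 0.05.

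Of the 75 histone genes, 21 had enough counts to be tested, 14 replication-dependent and 7 variant. Among the 52 replication-dependent genes that were not tested, 12 had no count in any of the 16 libraries, 21 had 1 to 9 counts, and 19 had 10 or more, up to 103 counts over all libraries in H2AC8. H1-7 and H1-8 were the variants that were not tested. No replication-dependent H3 gene reached the filter, and all 13 together had 59, 27, 31 and 20 counts in M0+LPS+IFN-γ+iMSCs, M0+LPS+IFN-γ, M0+iMSCs and M0. Among those tested were 9 H2B, 2 H2A, 2 H4 and 1 H1 gene. Only 6 of these 14 (H2BC21, H2BC12, H1-2, H2AC6, H2BC18 and H2BC5) had 10 or more counts in every library, so the others passed on some libraries only, mostly those of groups where they were higher, and counts and medians over the 14 describe the genes that passed, not all 66. The annotated span exceeded 1000 bases in 12 of the 14 tested replication-dependent genes and in 12 of the 52 others, and a model running over 100 bases past the stem-loop was annotated for 10 of 14 and 9 of 50. Replication-dependent genes are near-identical copies, and the sources used here do not give how reads shared between copies were counted, so the value of 1 copy is less certain than that of a family.

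Summed over the 66 replication-dependent genes, the level was 136 ± 6.5 CPM in M0+LPS+IFN-γ+iMSCs, 227 ± 34.5 CPM in M0+LPS+IFN-γ, 54.8 ± 4.09 CPM in M0+iMSCs and 147 ± 2.22 CPM in M0 (SD, n = 4 each). The 4 M0+LPS+IFN-γ libraries lay at 206 to 279 CPM, and without replicate 4 they averaged 210 ± 3.18 CPM (SD, n = 3). M0+iMSCs libraries lay at 50.8 to 58.8 CPM, below every library of the other groups. The 9 variant genes summed to 1915 ± 39.6, 1771 ± 81.3, 1276 ± 76.1 and 1485 ± 28.2 CPM in the same order of groups. Replication-dependent genes thus held 6.64% of the CPM of the 75 genes in M0+LPS+IFN-γ+iMSCs, 11.3% in M0+LPS+IFN-γ, 4.12% in M0+iMSCs and 9.01% in M0. H2BC21, H2BC12, H1-2 and H2AC6 supplied 83.4% to 86.1% of the replication-dependent CPM in each group. Since the libraries are of bulk RNA, fewer cells of a kind and less RNA per cell cannot be told apart.

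**Figure D1:**
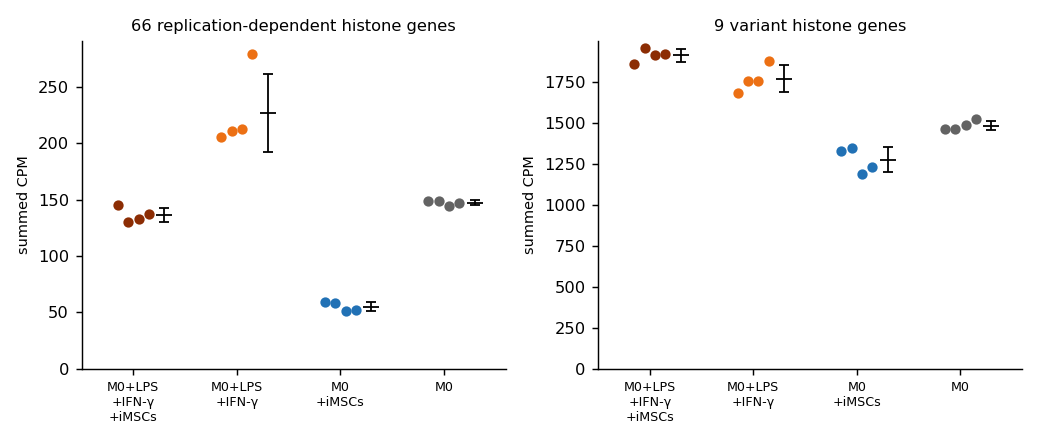
Summed CPM of the replication-dependent (left) and variant (right) histone genes in each library, by group, with the mean and SD of 4 libraries as black bars. Replication-dependent sums were lowest in M0+iMSCs (50.8 to 58.8 CPM), and variant sums were higher in M0+LPS+IFN-γ than in M0 with TMM scaling (1771 and 1485 CPM) but 1455 and 1461 CPM with library totals alone.

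Per kilobase of exon and averaged over the 16 libraries, the variants H2AZ1 and H3-3A were the highest, at 290 and 252 CPM per kilobase. H3-3B lay at 152, H1-10 at 51.4, H2AZ2 at 26.0 and H2AX at 9.77. Among replication-dependent genes, H2BC12 reached 67.8 CPM per kilobase, H2BC21 27.7, H2AC6 24.9 and H1-2 18.1, and the other 10 tested genes lay between 0.246 and 4.62. These lengths are those of the deposited table, which lists 495 bases for H2BC12 and 2194 for H2BC21.

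Co-culture with iMSCs without stimulation was compared as M0+iMSCs against M0. Of the 14 tested replication-dependent genes 9 fell, 1 rose (H2AC11) and 4 did not pass the test. Their median log2 fold change was -1.37, against 0.03 over all genes tested. Of those that fell, H2BC11, H4C8, H2BC4 and H2BC8 had 10 counts in every library of the other groups but not of M0+iMSCs. They were thus tested through groups where they were higher. H2BC21, H2BC12, H1-2, H2AC6 and H2BC18, with 10 or more counts in every library, also fell, and H2BC5 did not pass the test. Among all tested genes 33.6% fell and 36.2% rose in this comparison (69.8% in either direction), and for 69% the libraries of the groups did not overlap. The variants divided, with 3 of 7 lower, among them H1-10 and H3-3B, and H2AX and H2AZ1 higher. Tests are edgeR's quasi-likelihood test with Benjamini-Hochberg adjustment over all 15301 genes and a threshold of 0.05, and a log2 fold change is given with its SE.

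H2BC21, the H2B gene with the most reads, had 24.6, 25.8, 18.9 and 18.3 CPM in M0+iMSCs, against 61.0, 54.6, 57.0 and 60.3 CPM in M0. The groups did not overlap, and the 2 lower M0+iMSCs libraries were replicates 3 and 4. Its log2 fold change was -1.41 ± 0.10 (adjusted p = 2.01e-09). H2BC12, another H2B gene, had 14.8, 14.1, 14.0 and 14.4 CPM in M0+iMSCs, against 35.7, 40.5, 34.1 and 33.4 CPM in M0. Its M0+iMSCs libraries were nearly level with each other, and the log2 fold change was -1.33 ± 0.15 (adjusted p = 6.72e-07). H1-2, the only replication-dependent linker histone gene that was tested, had 6.65, 6.53, 4.74 and 4.87 CPM in M0+iMSCs, against 18.5, 16.7, 18.2 and 19.9 CPM in M0. It fell by 1.69 on the log2 scale (SE 0.13, adjusted p = 3.13e-09), or 3.23-fold.

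H2BC4 and H2BC8 had the largest falls of the tested histone genes. These genes, H2BC11 and H2BC6 are named after their values were seen. H2BC4 had 0.379, 0.539, 0.388 and 0.310 CPM in M0+iMSCs, against 2.29, 3.06, 2.77 and 3.05 CPM in M0. That is 6.96-fold lower (log2 fold change -2.80 ± 0.22, adjusted p = 6.76e-09), with no M0+iMSCs library near the M0 range. H2BC8 averaged 0.703 ± 0.226 CPM in M0+iMSCs and 4.40 ± 0.0909 CPM in M0 (SD, n = 4 each), 6.10-fold lower. H2AC6, an H2A gene and the head-to-head partner of H2BC4, averaged 3.89 ± 0.282 CPM in M0+iMSCs and 14.2 ± 0.869 CPM in M0, with a log2 fold change of -1.86 ± 0.16 (adjusted p = 1.33e-08). H2BC11, H4C8 and H2BC18 fell by 1.80, 1.63 and 1.20 on the log2 scale. H2BC5, H2BC6, H4C14 and H2BC15 did not pass the test, with log2 fold changes of -0.44, -0.90, -0.09 and 0.07. The annotated span of H2BC18 overlaps FCGR1A on the other strand, which averaged 29.9 ± 2.32 CPM in M0+LPS+IFN-γ+iMSCs, 15.1 ± 6.47 in M0+LPS+IFN-γ, 10.3 ± 0.428 in M0+iMSCs and 8.55 ± 0.627 in M0 (SD, n = 4 each). The sources used here do not give whether counting used strand, so reads of overlapping genes cannot be told apart. This also touches H2BC5, H2BC6, H2BC15 and H4C14, and the variants H1-10, H2AZ1, H3-3A and H3-3B. H2BC18, H2BC5 and H3-3B also overlap a gene on their own strand.

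H2AC11 went the other way. With 2 to 9 counts per M0 library, it was tested only through its higher counts with iMSCs. It had 0.505, 0.432, 0.517 and 0.774 CPM in M0+iMSCs, against 0.448, 0.351, 0.252 and 0.0968 CPM in M0. The highest M0 library lay within the M0+iMSCs range, and the log2 fold change of 0.98 ± 0.35 (adjusted p = 0.0194) was lost without M0 replicate 3, M0 replicate 4 or M0+iMSCs replicate 4 (adjusted p = 0.0526, 0.0702 and 0.0838). Its head-to-head partner H2BC11, whose start lies 246 bases away, averaged 0.432 ± 0.188 CPM in M0+iMSCs and 1.51 ± 0.211 CPM in M0 (SD, n = 4 each). By contrast, H2BC4 and H2AC6, 218 bases apart, fell together. Of the 11 head-to-head pairs of histone genes on these chromosomes, with gaps of 214 to 318 bases, only these 2 had both members tested.

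**Figure D2:**
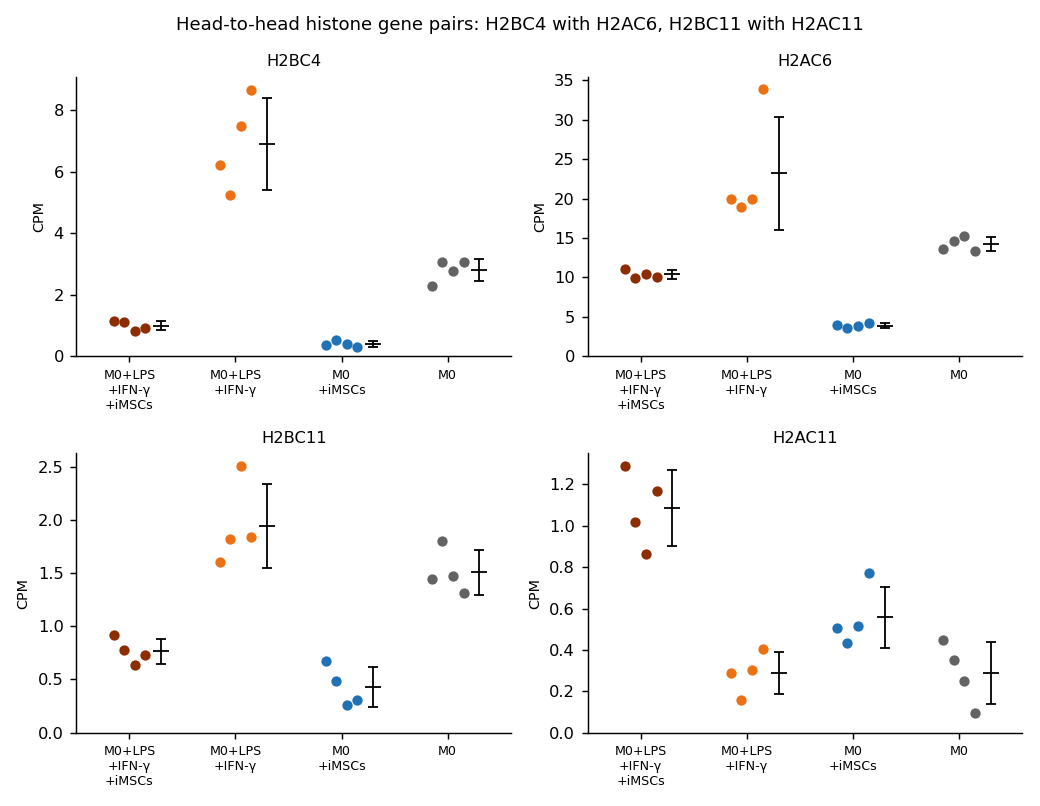
CPM of H2BC4, H2AC6, H2BC11 and H2AC11 in each library, by group, with the mean and SD of 4 libraries as black bars. H2BC4 and H2AC6 were both lower with iMSCs, whereas H2AC11 averaged 1.08 CPM in M0+LPS+IFN-γ+iMSCs and 0.286 CPM in M0+LPS+IFN-γ, the opposite order to H2BC11.

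Variant genes moved less in size. H1-10, a linker histone, averaged 55.6 ± 3.67 CPM in M0+iMSCs and 80.6 ± 2.48 CPM in M0, and H3-3B, which with H3-3A encodes the replacement histone H3.3, averaged 326 ± 16.0 and 474 ± 14.0 CPM (SD, n = 4 each). Both fell by 0.54 on the log2 scale. H2AZ1, which encodes the promoter-associated histone H2A.Z, had 350, 351, 332 and 332 CPM in M0+iMSCs, against 202, 206, 210 and 212 CPM in M0. All its M0+iMSCs libraries were above all M0 libraries, and it rose 1.64-fold (log2 fold change 0.72 ± 0.06, adjusted p = 7.25e-09). H2AX, the H2A form that is phosphorylated at DNA breaks, rose by 0.49 on the log2 scale (adjusted p = 3.99e-04). H2AZ2 and H3-3A did not pass the test, at -0.17 and -0.19. Both, and H2BC5, passed it when replicate 4 of M0+LPS+IFN-γ, which shares in the estimate of the spread, was left out (adjusted p = 0.0307, 3.31e-04 and 0.0277).

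The effect of LPS and IFN-γ was compared as M0+LPS+IFN-γ against M0. Of the 14 tested replication-dependent genes 9 rose, 1 fell (H1-2) and 4 did not pass the test. Their median log2 fold change was 0.70, against 0.01 over all genes tested. Of those that rose, H4C14 and H2BC6 had 10 counts in every M0+LPS+IFN-γ library but not in every M0 library. They passed the filter at least partly through groups where they were higher. Of all tested genes 29.1% rose and 28.3% fell (57.4% in either direction), and for 52.2% the groups did not overlap. Over both classes 12 of the 21 tested histone genes rose and 3 fell, whereas with library totals alone 7 rose and 5 fell. Without replicate 4 of M0+LPS+IFN-γ, 6 replication-dependent genes rose and 1 fell.

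H2BC21 had 96.8, 101, 96.6 and 113 CPM in M0+LPS+IFN-γ, above all M0 libraries at 54.6 to 61.0 CPM (log2 fold change 0.81 ± 0.10, adjusted p = 2.18e-06). H2BC12 had 43.0, 47.0, 48.7 and 77.6 CPM in M0+LPS+IFN-γ, against 33.4 to 40.5 CPM in M0, so that replicate 4 stood well above the others. H2AC6 showed the same layout, with 20.0, 19, 19.9 and 33.9 CPM in M0+LPS+IFN-γ, against 13.4 to 15.3 CPM in M0. Their log2 fold changes were 0.59 ± 0.14 and 0.71 ± 0.14 (adjusted p = 0.00201 and 3.84e-04). H2BC4 averaged 6.90 ± 1.48 CPM in M0+LPS+IFN-γ and 2.79 ± 0.36 CPM in M0 (SD, n = 4 each), 2.47-fold higher, the largest rise among the tested histone genes. H2BC5, H2BC18, H4C8, H4C14 and H2BC6 also rose. For H4C8 the log2 fold change of 0.80 (adjusted p = 0.0174) became 0.41 without replicate 4 (adjusted p = 0.0904), and those of H4C14 and H2BC6 were lost in the same way (adjusted p = 0.194 and 0.0867). H4C8 was also lost without M0 replicate 4 (adjusted p = 0.0564). H4C14 and H2BC6 were lost without several other single libraries as well.

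H1-2 had 17.1, 15.3, 14.3 and 11.2 CPM in M0+LPS+IFN-γ, against 18.5, 16.7, 18.2 and 19.9 CPM in M0. The groups overlapped in 1 library, and the fall of 0.34 on the log2 scale (log2 fold change -0.34 ± 0.12, adjusted p = 0.0223) was lost without M0 replicate 4 (adjusted p = 0.0678). H2BC8, H2BC11, H2AC11 and H2BC15 did not pass the test, at -0.09, 0.37, -0.00 and 0.06. Among the variants 3 of 7 rose, H3-3A and H3-3B with them, H1-10 and H2AX fell, and H2AZ1 and H2AZ2 did not pass the test. H2AX averaged 8.21 ± 0.93 CPM in M0+LPS+IFN-γ and 13.1 ± 0.881 CPM in M0 (SD, n = 4 each). Its log2 fold change was -0.68 ± 0.11 (adjusted p = 4.23e-05). H3-3B at 0.15 (adjusted p = 0.0179) was lost without M0 replicate 1 (adjusted p = 0.0572), and with library totals alone it was lower in M0+LPS+IFN-γ (-0.11, adjusted p = 0.0497). H3-3A, at 0.33, was not called with library totals alone (0.07, adjusted p = 0.438). H2AZ1, at -0.02, was called lower with library totals alone (-0.28, adjusted p = 3.80e-04).

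Co-culture under stimulation was compared as M0+LPS+IFN-γ+iMSCs against M0+LPS+IFN-γ. Of the 14 tested replication-dependent genes 8 fell, 1 rose (H2AC11) and 5 did not pass the test. Among the variants 4 of 7 rose and H3-3B alone fell. The median log2 fold change was -0.63 for the tested replication-dependent genes and 0.31 for the variants, against 0.03 over all genes tested, of which 38.4% rose and 36.3% fell (74.7% in either direction), with no overlap for 65.9%. Of the 21 tested histone genes 5 rose and 9 fell, and with library totals alone 9 rose and 8 fell, with medians of -0.16 and 0.79 for the 2 classes, against 0.50 over all genes. The 54 replication-dependent genes with at least 1 count were also fitted with no filter. Their median was 0.34 in this comparison (4 rose and 9 fell) and 0.00 in M0+iMSCs over M0 (2 rose and 13 fell). Many of these genes had few or no counts, and genes without a count in either group were fitted at 0.00. These medians therefore cannot show how the class moved, and those of the 14 genes describe only genes that passed the filter.

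H2BC21 had 68.0, 54.7, 59.6 and 62.8 CPM in M0+LPS+IFN-γ+iMSCs, all below the 96.6 to 113 CPM of M0+LPS+IFN-γ (log2 fold change -0.73 ± 0.10, adjusted p = 2.72e-06). H2BC4 had 1.15, 1.10, 0.826 and 0.924 CPM in M0+LPS+IFN-γ+iMSCs, against 6.22, 5.24, 7.48 and 8.65 CPM in M0+LPS+IFN-γ, a 6.88-fold fall. H2AC6 averaged 10.4 ± 0.518 CPM in M0+LPS+IFN-γ+iMSCs and 23.2 ± 7.13 CPM in M0+LPS+IFN-γ (SD, n = 4 each), and fell by 1.16 on the log2 scale. H2BC8, H2BC11, H2BC18, H2BC12 and H2BC5 fell by 1.54, 1.35, 0.89, 0.86 and 0.53, and for none of these 8 genes did the groups overlap. With library totals alone H2BC5 did not pass the test (-0.06, adjusted p = 0.781). H1-2 had 14.8, 14.0, 13.7 and 15.2 CPM in M0+LPS+IFN-γ+iMSCs, which lay within the 11.2 to 17.1 CPM of M0+LPS+IFN-γ. Its log2 fold change was -0.01 ± 0.12 (adjusted p = 0.972) and, with library totals alone, 0.47 (adjusted p = 0.00211). H4C8, H4C14, H2BC15 and H2BC6 did not pass the test, at -0.48, 0.53, -0.34 and -0.49. H4C14 passed it without replicate 4 of M0+LPS+IFN-γ (0.77, adjusted p = 0.00842) or without replicate 2 or 3 of M0+LPS+IFN-γ+iMSCs, and H4C8 without replicate 1 of M0+LPS+IFN-γ (-0.65, adjusted p = 0.0316).

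H2AC11 had 1.29, 1.02, 0.863 and 1.17 CPM in M0+LPS+IFN-γ+iMSCs, against 0.286, 0.156, 0.301 and 0.404 CPM in M0+LPS+IFN-γ. It rose 3.73-fold without overlap (log2 fold change 1.9 ± 0.33, adjusted p = 4.46e-05), and its partner H2BC11 was 2.55-fold lower. The M0+LPS+IFN-γ libraries held only 3 to 7 counts of H2AC11, against 23 to 28 counts in M0+LPS+IFN-γ+iMSCs, the group through which it passed the filter. Among the variants H2AX had 21.9, 25.7, 25.1 and 20.6 CPM in M0+LPS+IFN-γ+iMSCs, against 9.42, 7.16, 8.18 and 8.07 CPM in M0+LPS+IFN-γ. That 2.85-fold rise (log2 fold change 1.51 ± 0.11, adjusted p = 7.36e-10) was the largest of a variant here. H1-10 averaged 111 ± 5.12 CPM in M0+LPS+IFN-γ+iMSCs and 64.5 ± 1.73 CPM in M0+LPS+IFN-γ (SD, n = 4 each), and H1-10 and H2AZ1 rose by 0.78 and 0.31 on the log2 scale. H3-3B fell by 0.71 (SE 0.05, adjusted p = 8.69e-10). H2AZ2, at 0.24 (adjusted p = 0.0506), lay at the threshold, and its replicate 4 in M0+LPS+IFN-γ was lower than the rest (59.8 CPM, against 83.3 to 85.6 CPM). H3-3A, at 0.09, passed the test without that replicate (0.22, adjusted p = 1.99e-04). With library totals alone, H2AZ2, H3-3A and H4C14 were all called higher, at 0.71, 0.57 and 1.00 (adjusted p = 1.31e-05, 3.46e-06 and 0.00113), where the median of all genes was 0.50.

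**Figure D3:**
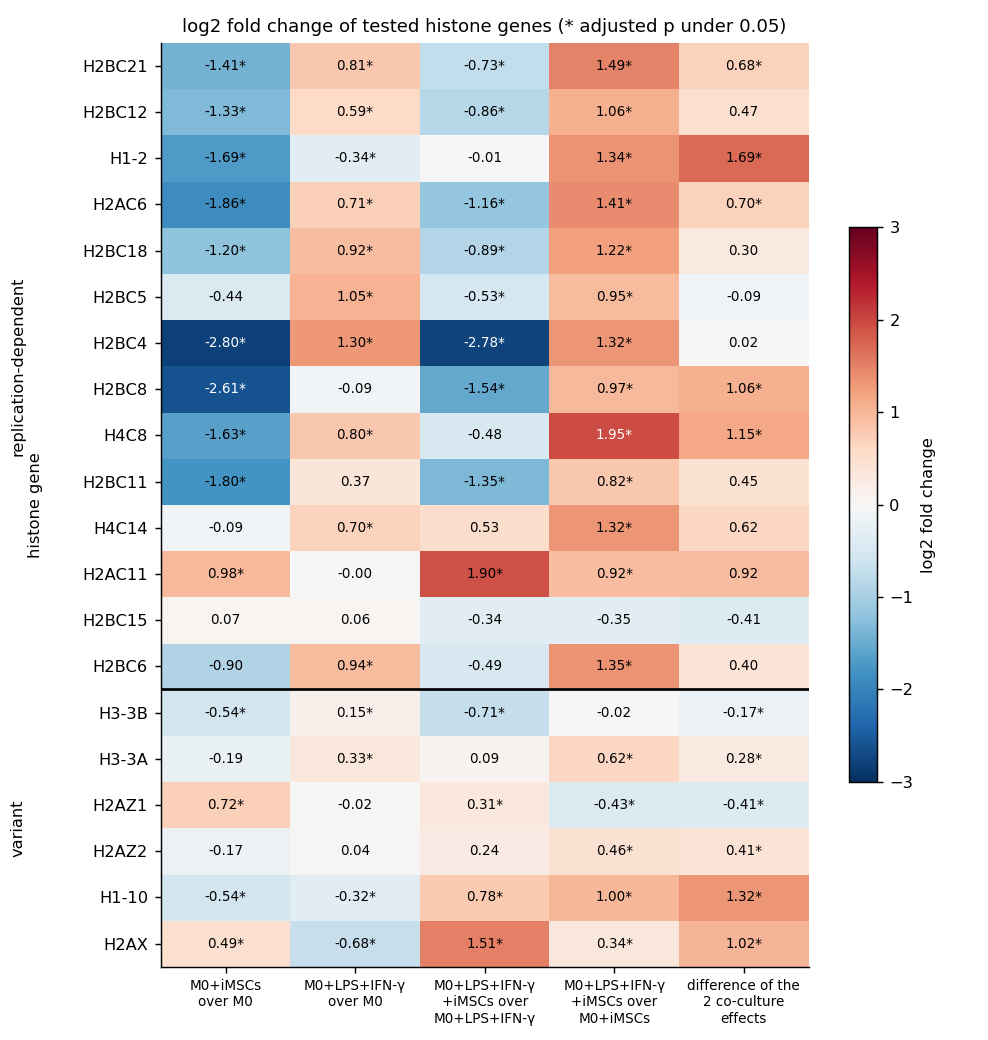
Log2 fold changes of the 14 tested replication-dependent genes and 6 tested variants (rows) in the 4 comparisons of groups and in the difference between the co-culture effect with and without stimulation (columns), with an asterisk where edgeR's adjusted p was under 0.05. In both co-culture columns the replication-dependent genes were mostly lower, H2AC11 was higher, and H2BC4 was the lowest, at -2.80 and -2.78. With library totals alone, H3-3B turned round in the stimulation columns and in the difference, and H1-2 in the co-culture column under stimulation.

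Stimulation within co-culture was compared as M0+LPS+IFN-γ+iMSCs against M0+iMSCs. Of the 14 tested replication-dependent genes 13 rose and H2BC15 did not pass the test. The median log2 fold change was 1.27, against 0.05 over all genes tested. Of all tested genes 39.3% rose and 35.1% fell (74.4% in either direction), with no overlap for 70.2%. H2BC11, H4C8, H2BC4, H2BC8, H2AC11, H4C14 and H2BC6 did not have 10 counts in every M0+iMSCs library. They passed the filter at least partly through groups where they were higher, so the 13 and the median describe only genes that passed. H4C8 rose most, by 1.95 on the log2 scale (SE 0.32, adjusted p = 3.18e-05), and averaged 1.9 ± 0.2 CPM in M0+LPS+IFN-γ+iMSCs and 0.490 ± 0.149 CPM in M0+iMSCs (SD, n = 4 each). H2BC21, H2AC6 and H1-2 rose by 1.49, 1.41 and 1.34. Among the variants 5 rose, H2AZ1 fell and H3-3B did not pass the test. H1-10 had 106, 111, 109 and 118 CPM in M0+LPS+IFN-γ+iMSCs, above its 50.7 to 58.8 CPM in M0+iMSCs. It rose by 1.00 on the log2 scale (SE 0.05, adjusted p = 1.57e-11). H2AZ1 had 244, 280, 261 and 228 CPM in M0+LPS+IFN-γ+iMSCs, below the 332 to 351 CPM of M0+iMSCs (log2 fold change -0.43 ± 0.06, adjusted p = 3.03e-06). The rise of H2BC11 by 0.82 (adjusted p = 0.0135) was lost without M0+iMSCs replicate 3 or 4 (adjusted p = 0.0508 and 0.0501). That of H2AX by 0.34 was lost without both of them (adjusted p = 0.144).

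Whether the co-culture effect differed with stimulation was tested as an interaction, the co-culture effect under stimulation minus that without it. It was positive for 10 of the 21 tested histone genes and negative for 2, where 31.1% of all tested genes were positive and 31.1% negative (62.1% in either direction). With library totals alone 15 were positive and none was negative, by edgeR at the same threshold. Among replication-dependent genes H1-2 had the largest difference, at 1.69 ± 0.18 on the log2 scale (adjusted p = 2.76e-07), followed by H4C8, H2BC8, H2AC6 and H2BC21 at 1.15, 1.06, 0.70 and 0.68. H2BC4 had a difference of 0.02 (adjusted p = 0.943), with falls of 6.96-fold and 6.88-fold in the 2 settings. These falls had SEs of 0.22 and 0.18 on the log2 scale. No SE is given for their difference, because the SE used here is unreliable for a value so small. All 7 variants passed this test. The differences of H1-10 and H2AX were 1.32 and 1.02, and those of H2AZ2 and H3-3A were 0.41 and 0.28. H2AZ1 and H3-3B had negative differences, at -0.41 and -0.17. With library totals alone these were -0.07 and 0.16 (edgeR's adjusted p = 0.465 and 0.0401). The calls of H3-3A and H3-3B were lost without many single libraries (adjusted p up to 0.0977 and 0.0982). H2AZ2 was lost without M0+iMSCs replicate 3 or 4 (adjusted p = 0.0540 and 0.0523), and H4C8 without M0+iMSCs replicate 4 (adjusted p = 0.0714). H2BC12, at 0.47 (adjusted p = 0.0557), passed the test without replicate 4 of M0+LPS+IFN-γ (0.70, adjusted p = 4.44e-06).

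**Figure D4:**
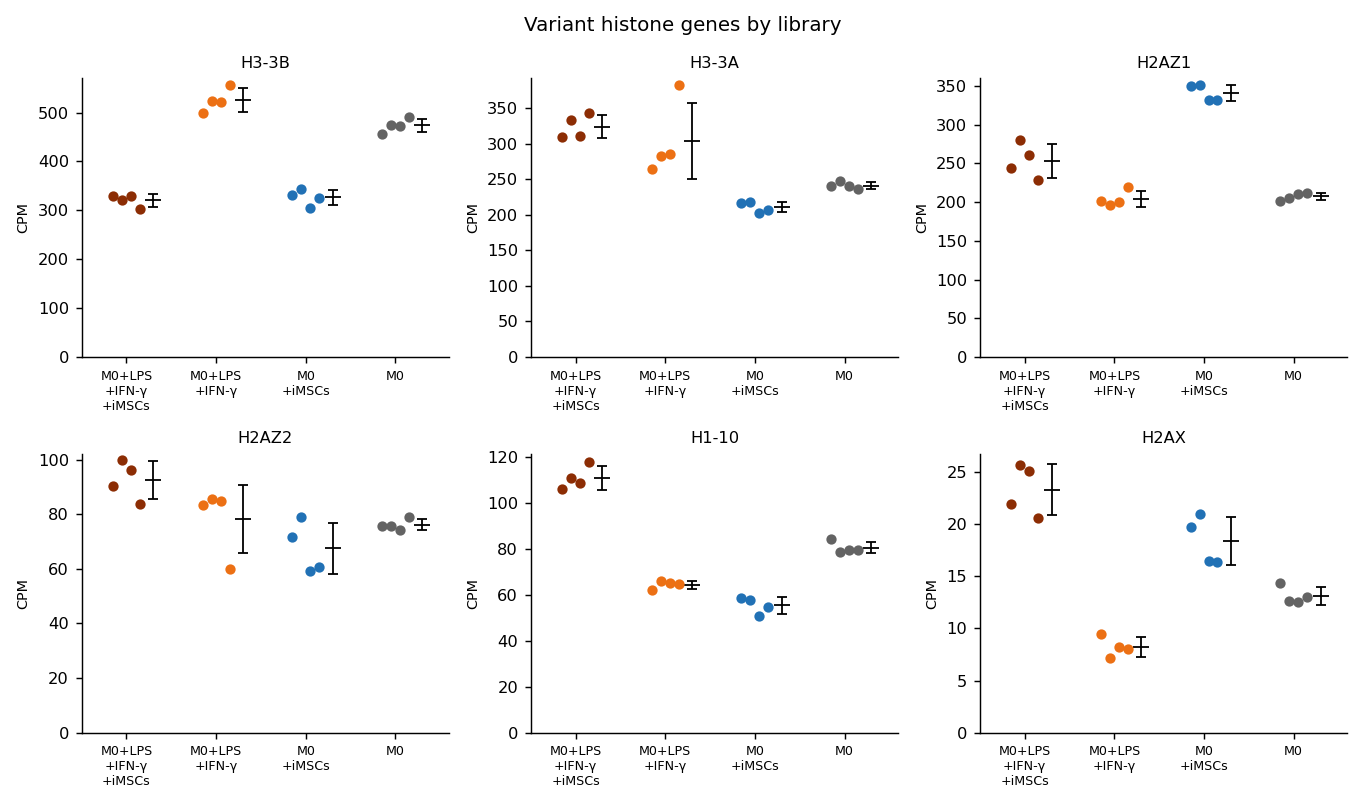
CPM of 6 tested variant histone genes in each library, by group, with the mean and SD of 4 libraries as black bars. H2AX was lowest in M0+LPS+IFN-γ (7.16 to 9.42 CPM), and H2AZ1 was highest in M0+iMSCs (332 to 351 CPM).

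Genes of DNA replication moved against most of the 14 tested replication-dependent histone genes under co-culture. Of 18 S phase genes 11 rose and none fell in M0+iMSCs over M0 (median log2 fold change 0.69). Among all tested genes 36.2% rose and 33.6% fell in that comparison, and 38.4% rose and 36.3% fell in the co-culture comparison under stimulation. In M0+LPS+IFN-γ+iMSCs over M0+LPS+IFN-γ 17 rose and RPA2, a subunit of the single-strand DNA binding complex, fell by 0.16 (median 2.62). CDC6, which loads the replicative helicase, averaged 14.8 ± 1.63 CPM in M0+iMSCs and 3.12 ± 0.226 CPM in M0, and the helicase subunit MCM6 averaged 53.0 ± 7.23 and 21.8 ± 0.865 CPM (SD, n = 4 each). PCNA, the sliding clamp of DNA polymerases, averaged 42.6 ± 8.57 CPM in M0+LPS+IFN-γ+iMSCs and 8.15 ± 0.406 CPM in M0+LPS+IFN-γ. All 12 mitosis genes rose in both co-culture comparisons, MKI67 by 4.83 and 6.88 on the log2 scale. In M0+LPS+IFN-γ over M0, 1 S phase gene rose and 5 fell, among them MCM3 by 1.35, and 2 of 12 mitosis genes fell. These shares of falling genes are no higher than the 28.3% of all tested genes.

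The 18 S phase genes summed to 690 to 1175 CPM in M0+LPS+IFN-γ+iMSCs, 239 to 268 CPM in M0+LPS+IFN-γ, 327 to 487 CPM in M0+iMSCs and 281 to 285 CPM in M0. The lowest library of M0+LPS+IFN-γ+iMSCs was replicate 4 (690 CPM, against 1006 to 1175 CPM in the others), which was also the lowest for the mitosis genes (313 CPM, against 486 to 544 CPM). The 52 replication-dependent genes below the filter were ordered otherwise than the 14 tested ones. They summed to 4.09 ± 0.469 CPM in M0+LPS+IFN-γ+iMSCs, 2.61 ± 0.356 CPM in M0+LPS+IFN-γ, 1.59 ± 0.146 CPM in M0+iMSCs and 2.04 ± 0.215 CPM in M0 (SD, n = 4 each), from 384, 192, 145 and 172 counts. The groups with LPS and IFN-γ did not overlap in this sum, and the group with iMSCs was the higher of them, where the tested genes summed to 132 ± 6.38 and 224 ± 34.2 CPM. H2BC9 had 35, 3, 7 and 0 counts in these groups, H3C13 had 20, 3, 14 and 3 counts, and H2AC20, the head-to-head partner of H2BC21, had 49, 19, 4 and 8 counts. These 3 genes were chosen after their values were seen. When all genes with at least 1 count were fitted, 41 histone genes below the filter could be tested. In M0+iMSCs over M0, H2BC9 rose (adjusted p = 0.0146) and H1-4, H2AC21, H1-6 and H2AC8 fell (adjusted p = 0.0204, 0.0474, 0.0415 and 0.00408), where 18.9% of all genes in that fit rose and 17% fell. H2BC9, H3C13 and H2AC16 rose in M0+LPS+IFN-γ+iMSCs over M0+LPS+IFN-γ (adjusted p = 1.40e-04, 0.0145 and 0.0467) and H1-6 fell (adjusted p = 0.0279), where 20% rose and 18.8% fell. H1-6 had 0, 5, 0 and 5 counts in the 4 groups. H2AC20 passed in neither co-culture comparison (adjusted p = 0.426 without and 0.0765 with stimulation).

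**Figure D5:**
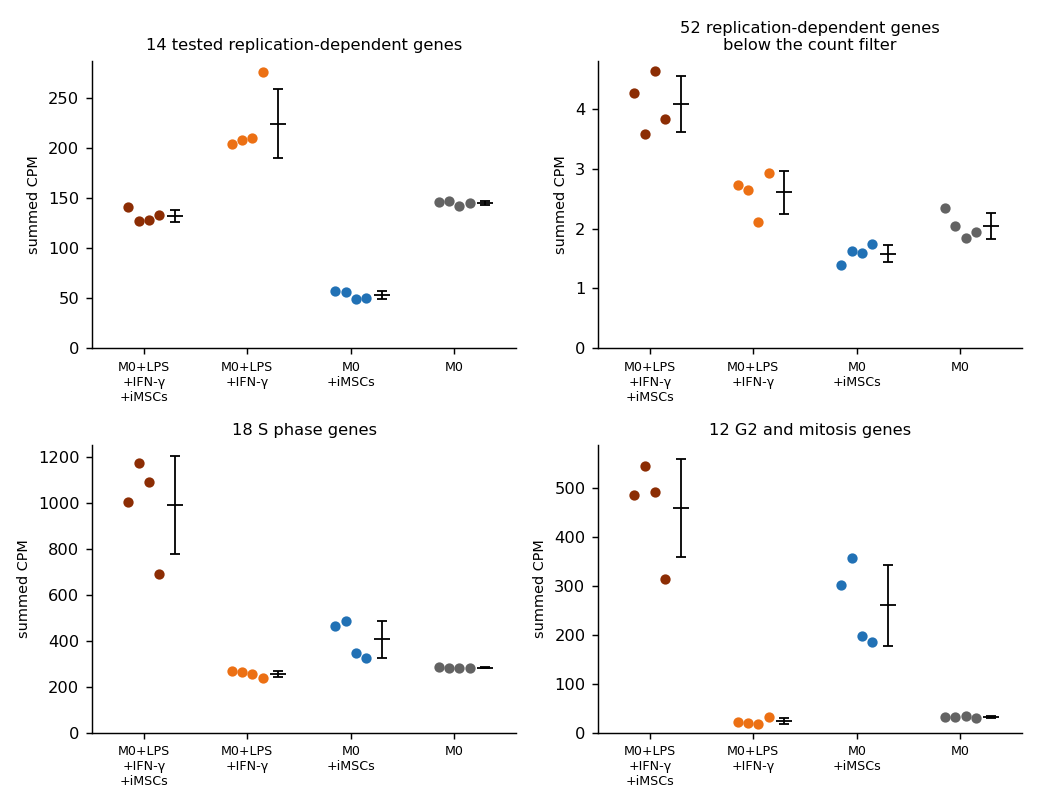
Summed CPM of the 14 tested replication-dependent genes, the 52 replication-dependent genes below the count filter, 18 S phase genes and 12 mitosis genes in each library, by group, with the mean and SD of 4 libraries as black bars. The S phase and mitosis sums were higher with iMSCs (690 to 1175 and 327 to 487 CPM for S phase), where the tested histone genes were lower than without iMSCs.

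The machinery that makes histone mRNA did not move one way. Of 19 genes for its synthesis, end processing and decay, 8 rose and 7 fell in M0+iMSCs over M0, 5 rose and 11 fell in M0+LPS+IFN-γ+iMSCs over M0+LPS+IFN-γ, and 4 rose and 6 fell in M0+LPS+IFN-γ over M0. Among all tested genes 36.2% rose and 33.6% fell in the first of these, 38.4% and 36.3% in the second and 29.1% and 28.3% in the third. In the first of these CSTF2 and SYMPK, of the cleavage complex, and ZNF473, of the U7 particle that pairs with histone pre-mRNA, fell by 0.56, 0.46 and 0.62 on the log2 scale, while LSM11, also of that particle, rose by 1.00. In the second TUT7, which adds uridines to histone mRNA in its decay, averaged 43.5 ± 4.68 CPM in M0+LPS+IFN-γ+iMSCs and 172 ± 15.9 CPM in M0+LPS+IFN-γ (SD, n = 4 each), a fall of 1.99 (adjusted p = 2.12e-13). E2F1, a transcription factor of S phase entry, and CCNE1, the cyclin E that activates histone transcription, rose by 5.66 and 2.68 in that comparison.

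Of 28 histone chaperone and deposition genes 27 were tested. In M0+iMSCs over M0, 9 rose and 8 fell, where 36.2% of all tested genes rose and 33.6% fell. Under stimulation, with iMSCs over without, 16 rose and 7 fell, where 38.4% and 36.3% of all tested genes did. HJURP, the chaperone of the centromeric histone CENPA, averaged 7.21 ± 2.74 CPM in M0+iMSCs and 0.147 ± 0.169 CPM in M0, and ASF1B, which carries new H3 and H4, averaged 8.17 ± 3.04 and 1.93 ± 0.433 CPM (SD, n = 4 each). MMS22L and TONSL, partners at stalled replication forks, rose by 4.23 and 2.26 on the log2 scale under stimulation, whereas DAXX, which deposits H3.3, fell by 0.70. In M0+LPS+IFN-γ over M0, 5 rose and 8 fell, where 29.1% and 28.3% of all tested genes did. EP400, of an H2A.Z exchange complex, was at -0.59 in that comparison. Among 7 tested histone variants outside the symbol rule, H2AJ, CENPA and MACROH2A2 rose in both co-culture comparisons, H2AJ by 1.00 without and 1.33 with stimulation and MACROH2A2 by 1.75 and 3.33. MACROH2A2 averaged 4 ± 0.738 CPM in M0+LPS+IFN-γ+iMSCs and 0.398 ± 0.135 CPM in M0+LPS+IFN-γ (SD, n = 4 each). H2AW fell in both, by 1.20 and 0.80. Its replicate 4 of M0+LPS+IFN-γ stood at 17 CPM, against 4.85, 6.38 and 6.02 CPM in the others. Those others overlapped the 3.75 to 5.84 CPM of M0+LPS+IFN-γ+iMSCs. MACROH2A1, the H2A variant with a macro domain, fell by 0.40 in M0+iMSCs over M0 and was at -0.02 in M0+LPS+IFN-γ+iMSCs over M0+LPS+IFN-γ (adjusted p = 0.767).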

How the data were processed

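For 16 libraries the authors deposited raw, whole-number read counts per gene. The submitters' processing notes name HISAT2, HTSeq and GRCh38 but no roles or versions. Gene locations are on GRCh38.p13, per the file headers, and the kit was VAHTS Universal V6, per the labels. Library sizes were scaled by TMM in edgeR 4.0.16 (R 4.3.3) after filterByExpr with a minimum count of 10. A robust quasi-likelihood model of all 4 groups, with 12 residual degrees of freedom and no block, gave each comparison, with Benjamini-Hochberg adjustment over 15301 genes. The SE is the absolute log2 fold change over the square root of F, which is unreliable for very small fold changes. The fit was tested on simulated data. Named genes were all tested variants, up to 4 replication-dependent genes of highest CPM in each histone family, genes moving against their class and up to 4 genes of each other list. Genes, lists and alternatives were chosen with earlier results of these data known. A planned search for genes with like patterns is not given, because libraries fall into separate groups. Alternatives were RLE factors, library totals, DESeq2 1.42.0, limma-voom (limma 3.58.1), other filters, a replicate block, only the groups compared and leaving out libraries. Sums over genes below the filter and over genes spanning at most 1000 bases were added after seeing the data. Figures were drawn with matplotlib 3.10.9. Some single values are not reported here.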

Additional observations from a re-analysis of the deposited data

Results flagged for a closer look

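Of 84 sets of 4 libraries checked (21 genes in 4 groups), 6 held a library far from the other 3, where chance gives about 1 in 20. Replicate 4 of M0+LPS+IFN-γ was lower for H2AZ2 (59.8 CPM, against 83.3 to 85.6 CPM in the others) and higher for H2BC5 (7.78, against 5.03 to 5.20), H2AC6 (33.9, against 19 to 20) and H2BC12 (77.6, against 43.0 to 48.7). H2BC5 was also higher in replicate 4 of M0+LPS+IFN-γ+iMSCs (4.47 CPM, against 3.77 to 3.87 CPM), and H1-10 in replicate 1 of M0 (84.3 CPM, against 78.9 to 79.6 CPM).

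The co-culture effect differed with stimulation for the histone genes below (edgeR's adjusted p of the interaction on the log2 scale). The differences were 1.69 for H1-2, 1.32 for H1-10, 1.15 for H4C8, 1.06 for H2BC8, 1.02 for H2AX, 0.70 for H2AC6, 0.68 for H2BC21, 0.41 for H2AZ2, 0.28 for H3-3A, -0.17 for H3-3B and -0.41 for H2AZ1. For H2AX both co-culture effects were positive (1.51 with and 0.49 without stimulation), for H1-10 they had opposite signs (0.78 and -0.54), and for H2AC6, H2BC21 and H2BC8 both were negative.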

How the results depend on the processing

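Single genes kept their direction and side of the threshold in 916 of 995 fits with another setting and in 1582 of 1680 that left out 1 library. The cause of the changes below was not tested.

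With library totals alone, 7 histone genes rose and 5 fell in M0+LPS+IFN-γ over M0, 9 rose in M0+LPS+IFN-γ+iMSCs over M0+LPS+IFN-γ, and 0 interactions were negative by edgeR. With no filter 8 rose in that co-culture comparison and 1 interaction was negative, and 1 was negative without M0+iMSCs replicates 1 and 2. Summed CPM of replication-dependent genes in M0+LPS+IFN-γ+iMSCs, M0+LPS+IFN-γ, M0+iMSCs and M0 were 155, 186, 59.3 and 145 with library totals alone, 74.9, 125, 32.9 and 88.9 without H2BC21, 4.09, 2.61, 1.59 and 2.04 over genes below the filter, and 47.1, 70.4, 21.1 and 55.8 over genes spanning at most 1000 bases. Most of this last sum came from H2BC12 and H1-2, which were tested. The 40 such genes below the filter summed to 2.82, 1.85, 1.08 and 1.58 CPM, higher with iMSCs under stimulation.

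Directions of single log2 fold changes turned round as follows. In M0+LPS+IFN-γ over M0, H2AZ2, H3-3B and H2BC15 were at -0.22, -0.11 and -0.20 with library totals alone, and H2AC11 was at 0.01 with RLE factors and DESeq2, 0.00 with no filter and 0.11 with limma-voom. In M0+iMSCs over M0, H2BC15 was at -0.13 without M0+iMSCs replicates 3 and 4, and H4C14 at 0.05 with library totals alone and 0.09 without replicates 1 and 2. In M0+LPS+IFN-γ+iMSCs over M0+LPS+IFN-γ, H1-2 was at 0.47 with library totals alone, 0.01 with a minimum count of 50 and 0.00 with limma-voom, and H2BC15 at 0.13 with library totals alone. In M0+LPS+IFN-γ+iMSCs over M0+iMSCs, H3-3B was at 0.05 with library totals alone and 0.02 without M0+iMSCs replicates 1 and 2. Among interactions, H3-3B and H2BC5 were at 0.16 and 0.24 with library totals alone, H2BC4 at -0.03 with RLE factors and -0.02 with DESeq2, and H2BC6 at -0.15 without M0+iMSCs replicates 1 and 2. Without M0+iMSCs replicates 3 and 4, H2BC11, H2BC5 and H2BC4 were at -0.01, 0.21 and -0.18.

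With the replicate block 1 interaction was negative, H1-2 was at 0.00 in M0+LPS+IFN-γ+iMSCs over M0+LPS+IFN-γ, and H2BC5, H3-3A and H2BC6 passed the threshold in M0+iMSCs over M0, as did H2AZ2 (0.25, adjusted p = 0.0219) and H4C14 (0.53, adjusted p = 0.0451) in M0+LPS+IFN-γ+iMSCs over M0+LPS+IFN-γ, while the interaction of H3-3B did not (adjusted p = 0.0661). Replicate numbers did not pair the libraries (r from -0.106 to 0.172 over 24 pairs of libraries with the same number).

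Leaving out 1 library turned some directions round. Log2 fold changes then ran from 0.00 to 0.15 for H2AZ2, -0.28 to 0.28 for H2AC11 and -0.07 to 0.23 for H2BC15 in M0+LPS+IFN-γ over M0, from -0.06 to 0.14 for H2BC15 and -0.24 to 0.02 for H4C14 in M0+iMSCs over M0, from -0.11 to 0.08 for H1-2 in M0+LPS+IFN-γ+iMSCs over M0+LPS+IFN-γ, and from -0.05 to 0.01 for H3-3B in M0+LPS+IFN-γ+iMSCs over M0+iMSCs. Interactions ran from -0.28 to 0.08 for H2BC5 and -0.09 to 0.17 for H2BC4, and 1 to 2 were negative in all. Replication-dependent genes at a few counts per library are limited by depth, and fold changes of genes below the filter were given only as counts or from the fit without it.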

Other observations

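Of the symbols that matched the rule but were not protein coding, the pseudogenes H2BC19P and H2BC20P on chromosome 1 were expressed at the level of H1-2. H2BC19P averaged 14.3 ± 1.92 CPM in M0+LPS+IFN-γ+iMSCs, 13.7 ± 1.54 in M0+LPS+IFN-γ, 6.69 ± 0.787 in M0+iMSCs and 13.1 ± 0.626 in M0 (SD, n = 4 each). H2BC20P averaged 18.6 ± 0.575, 15.4 ± 0.844, 8.98 ± 0.913 and 19.7 ± 1.65 CPM in the same order. By edgeR both fell in M0+iMSCs over M0, by 0.97 and 1.13 on the log2 scale (adjusted p = 6.12e-07 and 1.61e-09), and both had a positive interaction, of 1.03 and 1.40 (adjusted p = 1.89e-05 and 1.19e-08). The annotated spans of H2BC19P and H2BC20P overlap each other, so reads could be shared between them.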
